A study of Mus musculus with 8 samples.

Results

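The nuclear-encoded subunits of the mitochondrial respiratory chain and of ATP synthase were taken from the deposited count table by name, as genes whose mouse symbol begins with Ndufa, Ndufb, Ndufc, Ndufs, Ndufv, Uqcr, Cox4, Cox5, Cox6, Cox7, Cox8, or Atp5, or is Sdha, Sdhb, Sdhc, Sdhd, or Cyc1. Of 108 genes with such a name, 9 with the pseudogene ending -ps (with or without a number) were left out, among them the gene listed as Ndufb1-ps. This left 99 of the 54146 genes in the table. They comprised 41 genes of complex I, 4 of complex II, 9 of complex III, 19 of complex IV, and 18 of complex V, together with 8 Ndufaf genes, which share the beginning of their name with complex I but encode factors that assist its assembly.

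The libraries were bulk RNA-Seq of macrophages sorted from epididymal white adipose tissue (eWAT) of 4 C57Bl6 mice. Each mouse had eaten a high-fat diet (in the paper's methods, high-fat with added cholesterol) without restriction for 24 weeks. It had then undergone short-term caloric restriction (stCR), with 30% less food, over 2 weeks. The restriction was common to both groups, and no library from an unrestricted or lean mouse entered the comparison. From each mouse, 1 library was made from Fcgr4+ macrophages, which carry the IgG receptor FCGR4 on their surface, and 1 from Fcgr4- macrophages, giving 4 pairs. Mice 1 and 2 and mice 3 and 4 bear different animal ID prefixes in the labels, and what the prefix stands for is not given in the sources used here.

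The respiratory chain passes electrons from NADH (complex I) and succinate (complex II) through complex III to oxygen at complex IV, and the proton gradient that complexes I, III, and IV build drives ATP synthesis by complex V. Most subunits are encoded in the nucleus and imported, while a few at the heart of complexes I, III, IV, and V are encoded by mitochondrial DNA. In macrophages, the balance between this chain and glycolysis is known to differ between inflammatory and alternatively activated states. Complex II is set apart in that all of its subunits are nuclear and that it is also an enzyme of the citric acid cycle.

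Total counts lay between 35992794 and 66856746 per library. Fcgr4 itself, the gene of the sorted receptor, had 138.6 to 236.4 normalized CPM (counts per 1000000 counts of a library, scaled by edgeR's TMM factors) in the Fcgr4+ libraries and 48.5 to 82.9 in the Fcgr4- libraries, a log2 fold change of 1.61 (edgeR adjusted p = 0.0162). The 10 macrophage markers summed to 27910 to 52440 normalized CPM in the Fcgr4+ libraries and to 23050 to 47080 in the Fcgr4- ones. Markers of other cell types were lower in the Fcgr4+ libraries in part: of the markers tested, 7 of 7 for mast cells and basophils, 6 of 7 for T and NK cells, 4 of 7 for dendritic cells, 4 of 6 for neutrophils, 4 of 7 for fibroblasts, 1 of 4 for mesothelial cells, and 1 of 4 for B cells were called lower. None of the endothelial (6 tested), adipocyte (8 tested), brown adipocyte or striated muscle (1 tested), or isolation stress markers (6 tested) passed the test in edgeR.

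Taking the 4 mice together, no respiratory chain gene passed the adjusted threshold between Fcgr4+ and Fcgr4- macrophages. Of the 99 genes, 94 had at least 10 counts in at least 4 libraries and were tested among 17095 genes. With edgeR's quasi-likelihood test, mouse as a block, and an adjusted p under 0.1, 0 of them were called higher (0.0819% of all genes tested) and 0 were called lower (1.19% of all genes tested). DESeq2 with the same paired model called 0, and so did edgeR's newer quasi-likelihood method. At an unadjusted p under 0.05, edgeR gave 1 gene as higher (3.1% of all genes tested) and 1 as lower (6.67% of all genes tested). The point estimates leaned to 1 side, with 85 of 94 log2 fold changes above 0 (74 when counts were scaled by library size alone) and a median of 0.20 (0.05 without mouse 3 and 0.35 without mouse 1), beside a median of -0.00 over all genes tested. By complex, the median was 0.21 for complex I, 0.12 for complex II, 0.18 for complex III, 0.25 for complex IV, 0.19 for complex V, and 0.12 for the Ndufaf factors. Single mice moved these medians: without mouse 3, they were 0.056, 0.022, 0.00020, 0.054, and 0.0067 for complexes I to V. Without mouse 4, the median was 0.13 over the 94 genes, 0.047 for complex III, and 0.092 for complex V. Without mouse 1, it was 0.37 for complex I, 0.34 for complex III, and 0.39 for complex IV, and without mouse 2, it was 0.28 for complex III. With the trend of ratio with gene length removed (described with gene length), the median was 0.045 for complex III and 0.16 for complex IV. With counts scaled by library size alone, the medians were 0.12, 0.034, 0.093, 0.16, and 0.099 for complexes I to V.

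That median was not shared by the mice. The median log2 ratio of Fcgr4+ to Fcgr4- over the 94 genes was -0.22, -0.04, 0.65, and 0.45 in mice 1 to 4. Over all genes tested, it was 0.03, -0.00, -0.05, and -0.00 in mice 1 to 4. In mouse 1, 16 of 94 respiratory chain genes were higher in the Fcgr4+ library, and in mouse 2, 34 were. In each of mice 3 and 4, 83 were higher. In complexes II and IV, the median of mouse 2 was 0.05, above 0. Over the 94 genes, mice 3 and 4 thus stood above 0 and mouse 1 below it, with mouse 2 only slightly below.

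**Figure D1:**
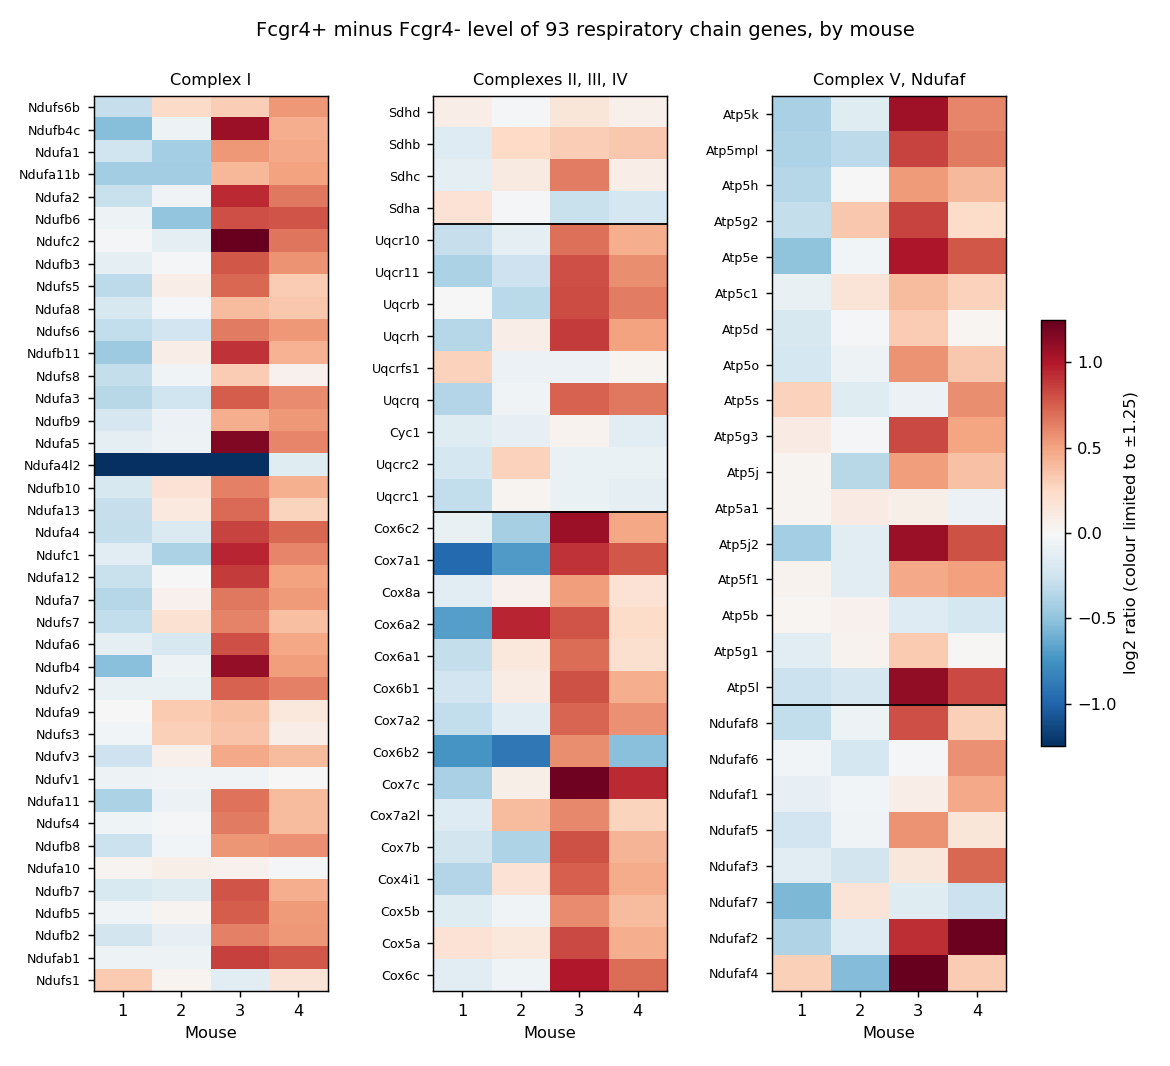
Log2 ratio of Fcgr4+ to Fcgr4- in each of the 4 mice (columns) for 93 of the 94 genes tested (rows, grouped by complex and ordered by gene length within it), red for higher and blue for lower in Fcgr4+ macrophages. Most rows are pale to blue in mice 1 and 2 and red in mice 3 and 4, while rows such as Ndufv1, Ndufa10, Sdha, Uqcrc1, Cyc1, Atp5a1, and Atp5b stay pale or turn blue in mice 3 and 4.

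The same genes often followed this order. Lower in mice 1 and 2 and higher in mice 3 and 4 were 46 of the 94 genes, a pattern noticed in these values and held by 7.03% of all genes tested. By contrast, 3 respiratory chain genes (among them Ndufa9 and Cox5a) were higher in 4 of 4 mice, as were 8.35% of all genes tested, and 2 (Ndufv1 and Ndufa4l2) were lower in 4 of 4, as were 10.4% of all genes tested. When the population effect was allowed to differ between the ID prefixes, 0 genes of the whole table differed at an adjusted p under 0.1 (0% of all genes tested). At an unadjusted p under 0.05, the difference was above 0 for 53 of 94 respiratory chain genes (6.14% of all genes tested) and below 0 for 0 of them (7.63% of all genes tested). The median of this difference was 0.65 on the log2 scale over the 94 genes and -0.06 over all genes tested.

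Within mice 3 and 4 alone, the median log2 fold change of the 94 genes was 0.51, and 57 reached an unadjusted p under 0.05 as higher (9.44% of all genes tested), with 0 called after adjustment. Within mice 1 and 2 alone, the median was -0.13, and 1 gene, Ndufa4l2, reached an unadjusted p under 0.05 as lower (5.24% of all genes tested). Each of these fits rests on 2 pairs of libraries.

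The difference between mice lay mainly in the Fcgr4+ libraries. Summed over the 99 genes, the Fcgr4- libraries held 8609, 8513, 8624, and 9192 normalized CPM in mice 1 to 4, a mean of 8734 ± 309 (SD, n = 4). The Fcgr4+ libraries held 7878, 8422, 12367, and 11507 normalized CPM, a mean of 10043 ± 2225 (SD, n = 4). The sums of mice 1 and 2 in Fcgr4+ macrophages were below each of the 4 Fcgr4- sums, and those of mice 3 and 4 were above each of them. In mouse 2 the gap was small and depended on the scaling. As a share of all counts, the genes took 0.8038% of its Fcgr4+ library and 0.8037% of its Fcgr4- library.

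**Figure D2:**
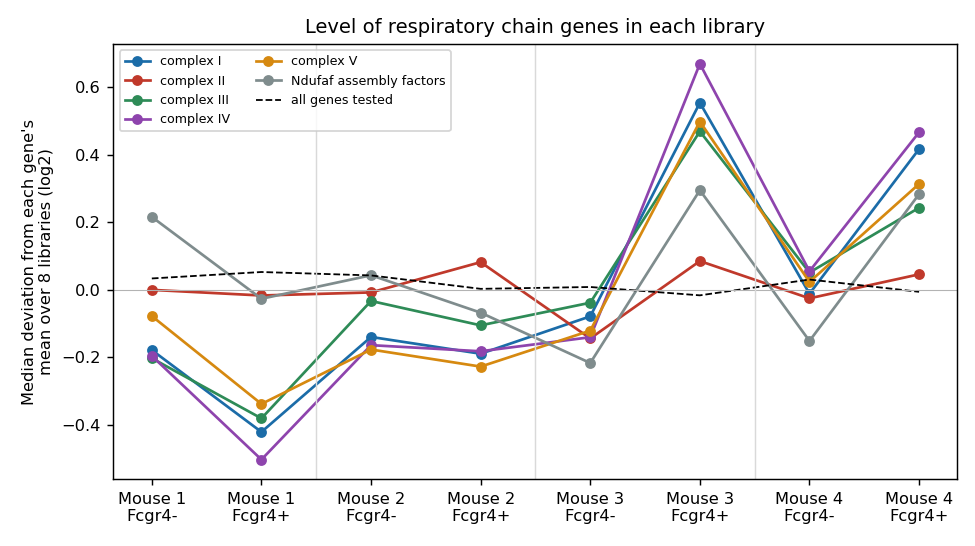
Median deviation of the genes of each complex from their own mean over the 8 libraries (log2, vertical axis) in the paired Fcgr4- and Fcgr4+ libraries of each mouse. The Fcgr4+ libraries of mice 3 and 4 stand highest for complexes I, III, IV, and V, the Fcgr4+ library of mouse 1 stands lowest, and complex II and all genes tested (dashed) stay near 0.

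Of complexes I to V, complex II had the median ratio that varied least between mice. The median ratio of its 4 subunits was -0.02, 0.05, 0.23, and 0.08 in mice 1 to 4, and their summed level was 702 ± 38.7 normalized CPM in Fcgr4+ and 668 ± 44.7 in Fcgr4- macrophages (SD, n = 4). No subunit of complex II was lower in mice 1 and 2 and higher in mice 3 and 4. The subunits still differed among themselves: in mouse 3, their ratios ran from -0.28 to 0.64. The genes of complex II were longer, with a median of 2744.5 exon bases, compared with 1631 over the 94 genes. Sdha, the flavoprotein that oxidizes succinate (chr13:74322254-74350280, mm10), had 293, 310, 192, and 194 normalized CPM in Fcgr4+ libraries of mice 1 to 4 and 257, 314, 233, and 226 in Fcgr4- libraries. It was thus lower in the Fcgr4+ library in mice 2, 3, and 4, with a log2 fold change of -0.09 ± 0.14 (SE), the lowest of the complex. Sdhb, the iron-sulfur subunit, had the highest at 0.19 ± 0.14. Its levels were 168, 209, 236, and 274 normalized CPM in Fcgr4+ and 188, 176, 191, and 217 in Fcgr4- libraries, lower in Fcgr4+ macrophages in mouse 1 only. Sdhd, a membrane anchor, was the most abundant of the 4 per length, at a mean of 134 CPM per kilobase over the 8 libraries, and its log2 fold change was 0.07 ± 0.12.

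In complex I, 39 of 41 log2 fold changes were above 0. The median ratio was -0.23, -0.04, 0.66, and 0.48 in mice 1 to 4, and 24 of 41 genes had the split described above. Ndufc2, an accessory subunit of the membrane arm, had the highest log2 fold change, 0.45 ± 0.24 (edgeR adjusted p = 0.584). Its levels were 99.6, 63.8, 136.2, and 107.9 normalized CPM in Fcgr4+ and 100.7, 68.9, 56.8, and 67.8 in Fcgr4- libraries. In mice 1 and 2, the libraries of a pair were close, while in mice 3 and 4 the Fcgr4+ library was clearly above the other. Ndufa1, a small membrane arm subunit needed for assembly of the complex, was the most abundant per length, at 245 CPM per kilobase. It had 72.4, 85.3, 143, and 128 normalized CPM in Fcgr4+ and 86.1, 115, 98.0, and 92.3 in Fcgr4- libraries, with a log2 fold change of 0.09 ± 0.20.

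Subunits that hold the redox centers of complex I differed among themselves. Ndufv1, which binds NADH and the flavin, had log2 ratios of -0.06, -0.05, -0.04, and -0.00 in mice 1 to 4 and a log2 fold change of -0.04 ± 0.12. Ndufs1, the largest iron-sulfur subunit, had ratios of 0.33, 0.03, -0.13, and 0.16, and a log2 fold change of 0.10 ± 0.14. Ndufs7 and Ndufs8, which carry the last iron-sulfur clusters of the electron path, had log2 fold changes of 0.22 ± 0.18 and 0.01 ± 0.15. The ratio of Ndufs7 was -0.31, 0.19, 0.62, and 0.37, and that of Ndufs8 was -0.30, -0.04, 0.32, and 0.05. Ndufv2 and Ndufs3, which belong to the same core but were not on the list of named subunits, were looked up after these values were seen: the ratio of Ndufv2 was -0.08, -0.08, 0.74, and 0.63, and that of Ndufs3 was -0.03, 0.30, 0.36, and 0.09. Ndufa9, an accessory subunit, was higher in 4 of 4 mice, by between 0.01 and 0.38.

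Ndufa4l2 was the gene with the lowest log2 fold change and the smallest p of all 94. It lies at chr10:127514967-127517154 and encodes a paralog of Ndufa4 that is induced by hypoxia. Its counts were low, with 8, 5, 20, and 24 in Fcgr4+ libraries and 47, 25, 76, and 38 in Fcgr4- libraries of mice 1 to 4. Scaled, these were 0.135, 0.104, 0.319, and 0.498 normalized CPM in Fcgr4+ and 0.723, 0.736, 1.37, and 0.557 in Fcgr4- libraries. The groups did not overlap, although in mouse 4 the libraries differed little. The log2 fold change was -1.86 ± 0.67, with an unadjusted edgeR p of 0.0271 and an adjusted p of 0.421 (0.173 in DESeq2), so the gene was not called. Markers of several other cell types were lower in the same libraries: the summed mast cell and basophil markers lay at 6.85 to 24.0 normalized CPM in Fcgr4+ and at 194 to 2072 in Fcgr4- libraries, and the fibroblast markers at 141 to 288 and at 354 to 1514. Fibroblast markers were thus counted in libraries of both populations, although the sort was for CD45+ CD11b+ cells. The part of other cells in the Ndufa4l2 values was not tested. In a bulk library, fewer cells of a type and less RNA per cell cannot be told apart.

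Ndufa4 itself, whose protein is now counted with complex IV, was far more abundant. It made up between 98.6% and 99.9% of the level per length of the pair in each library. Its ratio was -0.30, -0.19, 0.85, and 0.71 in mice 1 to 4. The share of Ndufa4l2 was 0.191% ± 0.0757 in Fcgr4+ and 0.872% ± 0.434 in Fcgr4- macrophages (SD, n = 4) and was lower in the Fcgr4+ library in 4 of 4 mice.

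In complex III, the median ratio was -0.29, -0.07, 0.69, and 0.46 in mice 1 to 4, and the subunits differed among themselves. The small subunits varied with the mouse: the ratio of Uqcr11 was -0.40, -0.26, 0.81, and 0.58, and that of Uqcr10 was -0.29, -0.13, 0.69, and 0.46. Uqcrb, a small subunit near the quinone site, was the most abundant of all 94 genes per length, at 309.5 CPM per kilobase, and had the highest log2 fold change of the complex (0.28 ± 0.21). Of its 50-base words, 25.5% occur in other genes, compared with 0% for Cox6b1, the next in level per length. Uqcrb had 301, 207, 374, and 314 normalized CPM in Fcgr4+ and 299, 261, 213, and 201 in Fcgr4- libraries. The larger subunits varied less. Cyc1, the cytochrome that passes electrons to cytochrome c, had ratios of -0.15, -0.10, 0.05, and -0.13. Uqcrfs1, the Rieske iron-sulfur protein, had ratios of 0.28, -0.07, -0.07, and 0.04. Uqcrc1, a large core subunit, had the lowest log2 fold change of the complex, -0.12 ± 0.13, with ratios of -0.31, 0.03, -0.08, and -0.11.

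In complex IV, 14 of the 15 log2 fold changes tested were above 0, and the median ratio was -0.24, 0.05, 0.78, and 0.45 in mice 1 to 4. Cox5a, a subunit on the matrix side that is the docking site of a thyroid hormone metabolite, had the smallest p among the genes that were higher. It lies at chr9:57521274-57532426 and had 80.1, 83.5, 146, and 127 normalized CPM in Fcgr4+ and 70.9, 76.2, 82.5, and 93.0 in Fcgr4- libraries. The Fcgr4+ library was the higher of the pair in 4 of 4 mice, by 0.18, 0.13, 0.82, and 0.45 on the log2 scale. The log2 fold change was 0.40 ± 0.16, with an unadjusted edgeR p of 0.0405 and an adjusted p of 0.487, and the gene was not called. Of its exon bases, 12.8% lie within another gene, Gm26631, and counting did not use strand.

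Cox7c, a small membrane subunit, had the highest log2 fold change of the complex, 0.46 ± 0.28 (edgeR adjusted p = 0.611). It had 52.2, 70.0, 137, and 116 normalized CPM in Fcgr4+ and 69.0, 66.5, 58.8, and 60.8 in Fcgr4- libraries, so that the 2 libraries above all others were the Fcgr4+ libraries of mice 3 and 4. Of its 50-base words, 22.1% occur in other genes. Cox4i1, which regulates the enzyme through ATP binding, had ratios of -0.37, 0.18, 0.74, and 0.46 and a log2 fold change of 0.25 ± 0.20. Cox6b1, on the outer face of the dimer, was the most abundant of the complex per length, at 296 CPM per kilobase, followed by Cox8a at 287. The log2 fold change of Cox6b1 was 0.27 ± 0.19 and that of Cox8a was 0.15 ± 0.15. Without mouse 3, these were 0.088 and 0.021, and without mouse 1 they were 0.45 and 0.25.

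**Figure D3:**
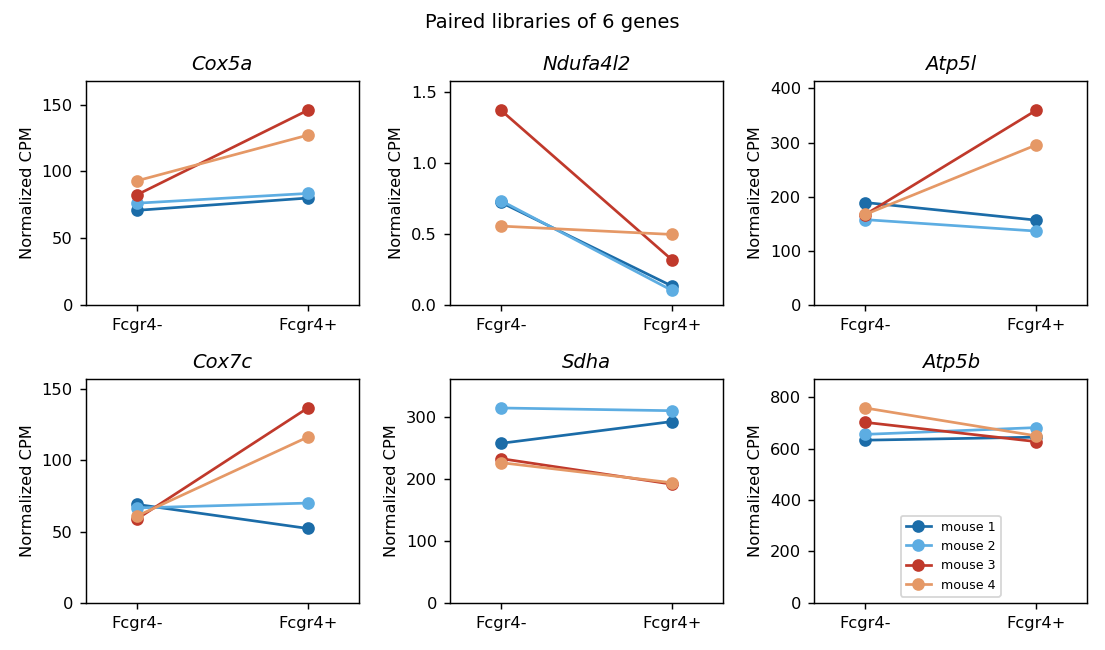
Normalized CPM (vertical axes, from 0) of 6 genes in the Fcgr4- and Fcgr4+ library of each mouse, joined by a line per mouse. Cox5a runs upward in 4 of 4 mice and Ndufa4l2 downward. Atp5l and Cox7c run upward steeply in mice 3 and 4, where Sdha and Atp5b run slightly downward.

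Several subunits of complex IV exist as isoforms, of which 1 is the form of most tissues and the other is known from heart and skeletal muscle, lung, or testis. The common form prevailed in these macrophages. Per length, Cox4i1 made up at least 99.5% of the Cox4i1 and Cox4i2 level in each library, Cox6a1 at least 98.9% beside Cox6a2, Cox6b1 at least 99.6% beside Cox6b2, Cox7b at least 98.7% beside Cox7b2, and Cox8a at least 99.5% beside Cox8b and Cox8c. Cox7a was the exception in that 2 forms were abundant: Cox7a2 took between 49.7% and 66.1%, Cox7a2l, which helps join complexes into supercomplexes, between 31.3% and 48.8%, and the muscle form Cox7a1 between 1.19% and 3.61%. The share of Cox7a2l was 39.7% ± 9.11 in Fcgr4+ and 38.2% ± 4.16 in Fcgr4- macrophages (SD, n = 4), higher in the Fcgr4+ library in 2 of 4 mice. Ratios of Cox7a2 were -0.31, -0.14, 0.73, and 0.58, and those of Cox7a2l were -0.16, 0.40, 0.60, and 0.28.

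The rare forms had low counts. Cox7a1 had 47, 59, 190, and 207 counts in Fcgr4+ and 103, 69, 89, and 170 in Fcgr4- libraries, and Cox6a2 had 41, 73, 126, and 79 counts in Fcgr4+ and 74, 26, 64, and 95 in Fcgr4- libraries. Cox6b2 had the lowest log2 fold change of complex IV, -0.41 ± 0.49. The genes Cox4i2, Cox7b2, Cox8b, and Cox8c had fewer than 10 counts in at least 5 of 8 libraries and were not tested, and a second entry named Atp5o, whose exons lie within Donson, had 0 counts in 8 of 8 libraries.

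In complex V, 16 of 17 log2 fold changes were above 0, with a median ratio of -0.20, -0.03, 0.53, and 0.41 in mice 1 to 4. The subunits that form the catalytic hexamer had ratios closer to 0. Atp5b, the beta subunit that makes ATP, was the most abundant of the complex per length (158 CPM per kilobase) and had 644, 682, 627, and 649 normalized CPM in Fcgr4+ and 633, 655, 702, and 758 in Fcgr4- libraries. Its ratios were 0.03, 0.06, -0.16, and -0.22, and its log2 fold change of -0.08 ± 0.13 was the lowest of the complex. Atp5a1, the alpha subunit, had ratios of 0.03, 0.10, 0.07, and -0.08.

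Several small subunits varied more with the mouse. Atp5l, subunit g of the membrane part (chr9:44912557-44920742), had 157, 137, 360, and 296 normalized CPM in Fcgr4+ and 190, 158, 167, and 167 in Fcgr4- libraries. The Fcgr4+ libraries of mice 3 and 4 stood above the other 6, and those of mice 1 and 2 below the 4 Fcgr4- libraries. Its log2 fold change over 4 mice was 0.36 ± 0.26, the highest of the complex, and the difference between the ID prefixes was 1.20, with the smallest unadjusted edgeR p of the 94 genes for that difference (0.0012) and an adjusted p of 0.303. Of its 50-base words, 10% occur in other genes. Atp5mpl, another small membrane subunit, shares 0% and had 55.3, 61.3, 139, and 123 normalized CPM in Fcgr4+ and 72.4, 76.8, 77.2, and 78.8 in Fcgr4- libraries, with a difference between prefixes of 1.10.

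Subunit c, which forms the rotor ring, is encoded by 3 genes that yield the same mature protein. Atp5g3 took 44.9% ± 5.09 of their summed level per length in Fcgr4+ and 42.7% ± 2.93 in Fcgr4- macrophages, Atp5g2 took 41.2% ± 4.42 and 41.1% ± 2.16, and Atp5g1 took 13.9% ± 1.00 and 16.2% ± 2.68 (SD, n = 4). The share of Atp5g1 was lower in the Fcgr4+ library in 4 of 4 mice. The log2 fold changes were 0.35 ± 0.17 for Atp5g3, 0.28 ± 0.20 for Atp5g2, and 0.06 ± 0.13 for Atp5g1. Of the 50-base words of Atp5g2, 38.3% occur in other genes, and of those of Atp5g1, 11.1%.

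Set side by side, a list of 13 subunits, most of them catalytic or carriers of redox centers (among them Ndufs1, Ndufs7, Ndufs8, Ndufv1, Sdha, Sdhb, Uqcrfs1, Cyc1, Cox4i1, Cox5a, Atp5a1, and Atp5b), had median ratios of 0.03, 0.06, 0.07, and 0.04 in mice 1 to 4. The 73 other subunits had medians of -0.24, -0.05, 0.72, and 0.48. They include Ndufv2 and Ndufs3, which belong to the core of complex I and were not on the list, and the ratios of Ndufv2 were -0.08, -0.08, 0.74, and 0.63. Of the 13, 1 was lower in mice 1 and 2 and higher in mice 3 and 4, compared with 40 of the 73. The listed genes were longer, with a median of 2239 exon bases against 1381. Among genes of between 1000 and 5000 bases, the medians were 0.03, 0.10, 0.07, and 0.03 for 11 listed subunits and -0.21, -0.03, 0.65, and 0.44 for 47 others. These are descriptions over genes, and the difference between the lists was not tested.

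**Figure D4:**
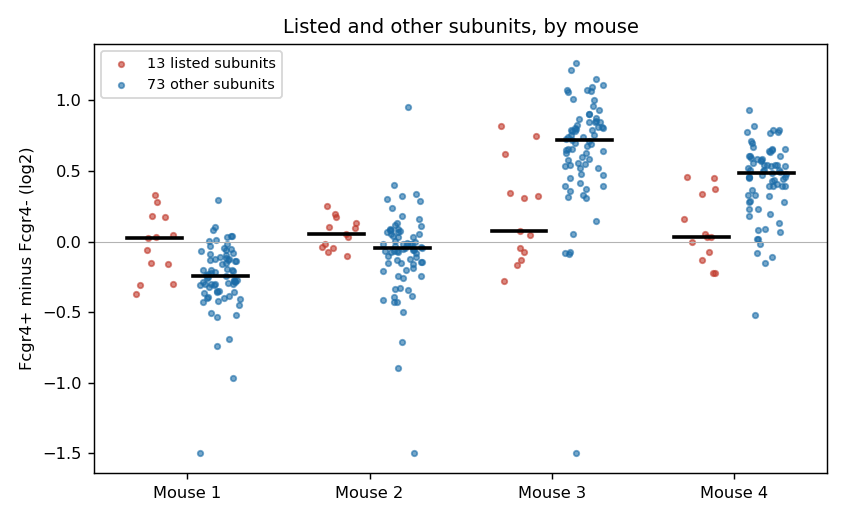
Log2 ratio of Fcgr4+ to Fcgr4- (vertical axis, with Ndufa4l2 drawn at the lower edge in mice 1 to 3) for the 13 listed subunits (red) and the 73 other subunits (blue) in each mouse, with black bars at the medians. The red medians stay between 0.03 and 0.07, while the blue medians run from -0.24 in mouse 1 to 0.72 in mouse 3.

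Gene length moved with the ratio, in all genes as well as in the respiratory chain. Across the 17095 genes tested, Spearman's correlation between length and log2 ratio was 0.18, -0.05, -0.22, and -0.19 in mice 1 to 4, so that shorter genes tended to be lower in Fcgr4+ macrophages in mouse 1 and higher in mice 3 and 4. Across the 94 genes, it was 0.40, 0.17, -0.26, and -0.21. Genes of a library share its depth and preparation and are not independent, and no p is given.

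The ratios are also given within classes of length, beside those of other genes with a mean of at least 50 normalized CPM. Between 2000 and 4000 bases, 18 respiratory chain genes had median ratios of -0.09, 0.02, 0.50, and 0.35, whereas 922 other genes had 0.11, 0.05, 0.01, and 0.03. Below 1000 bases, they were -0.28, -0.11, 0.73, and 0.47 for 15 respiratory chain genes and -0.18, 0.09, 0.61, and 0.35 for 319 others. After a smooth trend with length was removed from each library, an alternative added after these values were seen, the medians of the 94 genes were -0.15, -0.05, 0.47, and 0.35 in mice 1 to 4. Those of complex III were -0.21, -0.07, 0.27, and 0.20. On the TPM scale, in which each count is divided by gene length before scaling, the log2 ratio of the summed level was -0.12, 0.04, 0.16, and 0.01 in mice 1 to 4, in place of -0.17, -0.05, 0.63, and 0.39 for the sum of CPM per kilobase. That scale lowered the median ratio of all genes with at least 50 normalized CPM to -0.39 in mouse 3 and -0.30 in mouse 4, and relative to it the medians of the respiratory chain genes were 0.57 and 0.37.

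**Figure D5:**
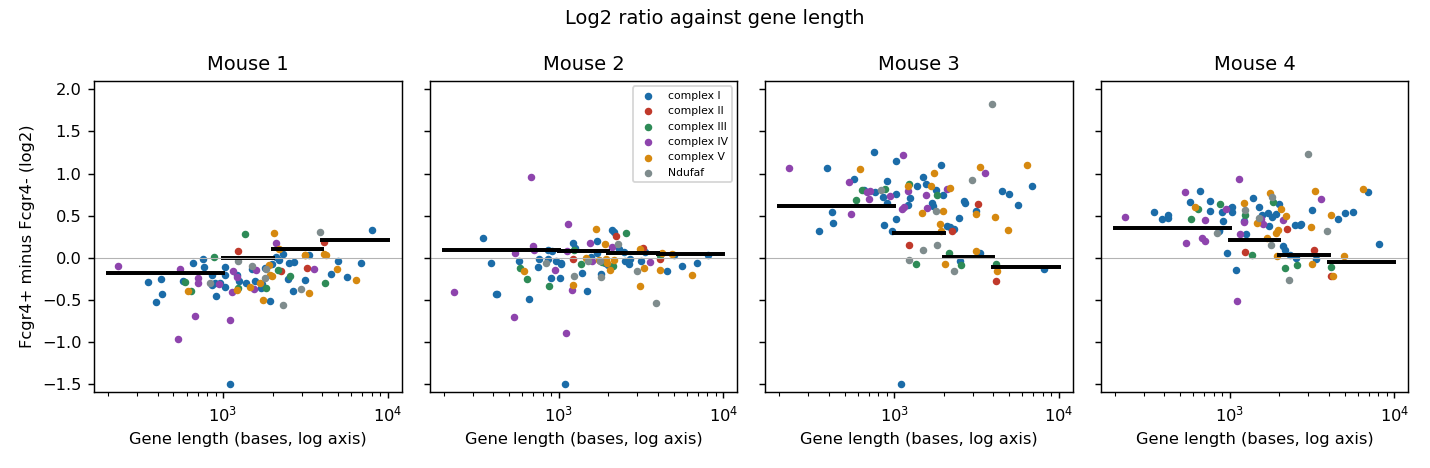
Log2 ratio of Fcgr4+ to Fcgr4- (vertical axis, with Ndufa4l2 drawn at the lower edge in mice 1 to 3) against gene length (exon bases, log axis) for the 94 genes, colored by complex, in 1 panel per mouse. Black bars are medians of other genes with at least 50 normalized CPM in 4 classes of length. In mice 3 and 4 the bars fall with length, from 0.61 to -0.11 and from 0.35 to -0.06, and most respiratory chain genes lie above the bar of their class.

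Other gene groups followed the mice in part. The 13 subunits encoded by mitochondrial DNA had median ratios of -0.13, -0.55, 0.61, and 0.84, and 12 of them were lower in mice 1 and 2 and higher in mice 3 and 4. Their summed level, unlike that of the nuclear subunits, also varied among Fcgr4- libraries, at 88913, 64639, 46752, and 34886 normalized CPM in mice 1 to 4, beside 78611, 42621, 75444, and 61236 in Fcgr4+ libraries. The 82 cytosolic ribosomal protein genes tested had medians of -0.31, 0.14, 0.84, and 0.39, and the 77 mitochondrial ribosomal protein genes had medians of -0.08, 0.07, 0.50, and 0.36. Summed isolation stress markers, which include Fos and Jun, had ratios of 0.35, 0.03, -0.36, and -0.48, and summed macrophage markers had 0.16, 0.16, 0.28, and 0.10. Whether RNA quality or the share of other cells had a part in the respiratory chain values was not tested, and the ID prefix and any condition that goes with it cannot be told apart.

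In the neighboring pathways, the medians of mice 3 and 4 lay closer to 0 or below it. The 17 genes of pyruvate oxidation and the citric acid cycle had median ratios of 0.00, 0.02, -0.14, and 0.03, and 0 were called. Suclg2, a subunit of succinyl-CoA ligase, had a log2 fold change of 0.31 ± 0.15. The 17 genes of electron carriers and coenzyme Q synthesis had medians of -0.15, 0.01, -0.07, and -0.04, and the smallest p in that list belonged to Coq5, a methyltransferase of that synthesis (0.34 ± 0.15), and Pdss1, which makes its side chain (-0.37 ± 0.27). The 14 regulators of mitochondrial biogenesis had medians of 0.14, 0.10, -0.38, and 0.13, and the smallest p belonged to Polg, the mitochondrial DNA polymerase (-0.51 ± 0.20, lower in 4 of 4 mice), and Yy1, a transcription factor (0.53 ± 0.28). The log2 fold change of Yy1 was 0.31 without mouse 3, 0.36 without mouse 4, and 0.84 without mouse 2.

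Assembly factors lay between. The 8 Ndufaf genes had median ratios of -0.19, -0.11, 0.35, and 0.40, at a level of 5.14 CPM per kilobase in the median, compared with 44.6 for complex I. Their highest log2 fold change was that of Ndufaf4 (0.46 ± 0.36, but 0.018 without mouse 3 and 0.80 without mouse 2) and their lowest that of Ndufaf7 (-0.21 ± 0.18). The 44 other assembly factors tested had medians of -0.07, 0.02, 0.30, and 0.30, and the smallest p belonged to Nubpl, which inserts iron-sulfur clusters into complex I (0.58 ± 0.21), and Sdhaf4, which serves complex II (0.54 ± 0.20), both higher in 4 of 4 mice. Among the ribosomal lists, the smallest p belonged to Mrpl18 (0.40 ± 0.15) and Mrpl16 (0.37 ± 0.16) and to Rpl7 (0.39 ± 0.17) and Rps20 (0.47 ± 0.22), and among the mitochondrially encoded genes to mt-Nd6 (0.48 ± 0.30) and mt-Atp8 (0.41 ± 0.31). Without mouse 4, the log2 fold change of mt-Nd6 was 0.20 and that of mt-Atp8 was 0.13, without mouse 3 they were 0.27 and 0.16, and without mouse 2 they were 0.78 and 0.71. In edgeR, 0 genes of these 7 lists were called, and unadjusted p values under 0.05 went to 4 of 44 genes above and 1 of 44 below 0 among the other assembly factors, 1 of 77 mitochondrial ribosomal protein genes above 0, and 1 of 14 biogenesis regulators below 0, beside 3.1% above and 6.67% below 0 of all genes tested.

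Since many of the genes varied together, their promoters are shown for 4 genes. RefSeq promoter windows (GRCm38.p6, 250 bases before to 50 after the start) matched 76 of the 99 genes, 74 of them tested. They were searched on both strands for the core of the NRF1 site (GCATGCGC), an ERR site (TCAAGGTCA), the core of ETS factors such as GABPA (CCGGAAG), and the core of the YY1 site (AAGATGGCG). These factors are known regulators of respiratory chain genes. For each motif, the gene with a match in the 150 bases before the start and the smallest unadjusted p for the difference between prefixes is printed, 5′ to 3′ on the strand of the gene, with matches in capitals.
Atp5k: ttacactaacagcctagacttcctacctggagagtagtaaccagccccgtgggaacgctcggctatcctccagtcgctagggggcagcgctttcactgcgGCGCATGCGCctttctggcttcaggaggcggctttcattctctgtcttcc
Atp5g3: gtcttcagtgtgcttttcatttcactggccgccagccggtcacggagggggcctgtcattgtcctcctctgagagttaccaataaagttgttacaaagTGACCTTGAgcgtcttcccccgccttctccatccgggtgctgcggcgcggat
Uqcr11: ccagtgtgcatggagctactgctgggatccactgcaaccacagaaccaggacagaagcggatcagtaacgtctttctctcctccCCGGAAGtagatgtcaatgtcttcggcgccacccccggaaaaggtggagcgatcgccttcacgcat
Atp5j: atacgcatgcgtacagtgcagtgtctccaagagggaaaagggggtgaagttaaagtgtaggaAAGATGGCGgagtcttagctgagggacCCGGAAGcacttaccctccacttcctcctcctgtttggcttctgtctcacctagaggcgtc
These stretches lie at chr5:108434400-108434549, chr2:73911327-73911476, chr10:80406822-80406971, and chr16:84834977-84835126, all on the minus strand. In Atp5k, the capitals hold the NRF1 core on both strands, overlapping, from 50 bases before the start. In Atp5g3, they hold the ERR site on the opposite strand, in Uqcr11 the ETS core 66 bases before the start, and in Atp5j the YY1 core 88 bases and the ETS core 61 bases before it.

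Of 79 windows of the tested respiratory chain genes (some have more than 1 start), 15.2% held the NRF1 core, 2.53% the ERR site, 22.8% the ETS core, and 10.1% the YY1 core. Among all 32851 windows of the same length, the shares were 2.71%, 0.423%, 8.86%, and 1.4%. At least 1 of the 4 motifs was in 18 of 38 genes (47.4%) that were lower in mice 1 and 2 and higher in mice 3 and 4, and in 14 of 36 (38.9%) of the other genes with a window. A match gives only the letters and does not show binding.

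Some of the genes share sequence with others. At least 10% of exon bases lie within other genes for 13 of the 99 genes, and at least 10% of 50-base words occur in other genes for 26. A read pair that mapped to more than 1 place was counted in every one. The near-copy Ndufb4c, which shares 100% of its words, cannot be told from Ndufb4 in these counts, and Cox6c2 shares 52.7% of its words, all with Cox6c. The 65 tested genes below both limits had a median log2 fold change of 0.18 and median ratios of -0.20, -0.05, 0.64, and 0.45 in mice 1 to 4.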

How the data were processed

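The authors sorted eWAT macrophages (CD45+ CD11b+ cells negative for lymphocyte, neutrophil, and eosinophil markers) by FCGR4, sequenced 8 libraries, used STAR for mapping to mm10, and counted read pairs on GENCODE genes with featureCounts 1.6.3. The deposited values are these counts, unnormalized. Per the file headers, a pair with more than 1 mapping place was counted in every one, and strand was not used. The deposited gene length was used as other information, for levels per kilobase. Sample labels gave population and mouse, and 0 per-sample columns were left out. Replicate libraries of a population were not duplicates, since their chi-square statistic per degree of freedom was at least 83.6.

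Symbols were found for 54079 of 54146 gene IDs. Genes reaching 10 counts in 4 or more of the 8 libraries were tested with edgeR 4.0.16 (R 4.3.3): TMM factors, the quasi-likelihood test, mouse as a block (as in the authors' paired model), Benjamini-Hochberg adjustment over 17095 genes, and a threshold of 0.1. Standard errors were the absolute log2 fold change over the root of F. Ratios per mouse are differences of log2 CPM with a prior count of 2. The pairing comes from the animals: deviations from group means of libraries of the same mouse correlated at 0.291 to 0.428, and those of different mice at -0.336 to 0.0116. Deviations from a group mean cancel over its mice, so positive values within mice make those between mice negative on average. The gap is therefore partly built in. Total counts were 35992794 to 66856746, at which 3 counts equal 0.0440 to 0.0883 normalized CPM; such floors cover counting error only. Each mouse gave 1 library per population, so p values measure the spread between 4 mice.

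Members and lists were chosen with earlier results of these data known. Named genes are those called, the highest and lowest log2 fold change and the highest level per length of each complex, 13 listed subunits, isoform groups, genes not tested, and, of the pathway lists, the 2 with the smallest p. Those with 1 direction in 4 of 4 mice, the 2 with the smallest p for the difference between prefixes, Ndufs3, Ndufv2, Ndufa10, Uqcr10, Uqcr11, Ndufaf4, and Ndufaf7, and the genes whose promoters or near-copies are given were added after their values were seen. Alternatives were no replicate block, DESeq2 1.42.0, RLE factors, library size alone, other filters, the newer quasi-likelihood method, a threshold of 0.05, each mouse left out, each ID prefix alone, other member lists, the TPM scale and, added afterward, the length trend removed (lowess, span 0.3) and the difference between prefixes. Protein sequences were not used here, and values of some single genes are not reported here.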

Additional observations from a re-analysis of the deposited data

Results flagged for a closer look

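For several groups, the medians per mouse lay on opposite sides of 0 in the 2 ID prefixes, with mice 1 and 2 below and mice 3 and 4 above. The mean of the medians of mice 3 and 4 minus that of mice 1 and 2 was 0.686 for all 94 genes, 0.708 for complex I, 0.755 for complex III, 0.589 for complex V, and 0.524 for the Ndufaf factors (log2). These differences between medians were not tested. In complexes II and IV, mouse 2 was above 0, with medians of -0.02, 0.05, 0.23, and 0.08 for complex II and -0.24, 0.05, 0.78, and 0.45 for complex IV in mice 1 to 4. For single genes the difference was tested, and 0 passed the adjusted threshold in edgeR.

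Sdhb had 1 mouse far from the others. Its log2 ratio was -0.157 in mouse 1 and between 0.252 and 0.337 in the other 3 mice, a gap of 0.83 of the range, just past Dixon's critical value for 4 values. Of 56 sets of 4 values examined, this was the 1 past that value, where chance alone gives about 2.8.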

How the results depend on the processing

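In each of the alternative fits over the whole table, 0 members were called higher and 0 lower; the TPM scale and the other member lists gave medians or sums only. The median log2 fold change of members was 0.20 and lay between 0.05 (without mouse 3) and 0.35 (without mouse 1); it was -0.13 in mice 1 and 2 alone, 0.51 in mice 3 and 4 alone, 0.11 with library size alone (complexes I to V: 0.12, 0.034, 0.093, 0.16, and 0.099), and 0.16 with the length trend removed. With no replicate block, the median was 0.26, and the block changed no call of a member (217 genes called over the table with the block and 48 without it, 1024 by DESeq2, 629 by the newer method, and 1054 of 38021 with no filter). Leaving out mice gave 84 to 163 called genes, and each ID prefix alone gave 113. On the TPM scale (length-normalized shares), the mean log2 ratio of the members' summed level was 0.02 instead of 0.20. That scale also moved the median of genes with at least 50 normalized CPM, to 0.16, 0.14, -0.39, and -0.30 in mice 1 to 4; relative to it the members' medians were -0.33, -0.10, 0.57, and 0.37.

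Of 49 tested members named, 29 changed sign in mice 1 and 2 alone: Atp5b 0.042, Atp5g1 -0.046, Atp5j -0.15, Atp5k -0.28, Atp5l -0.24, Atp5mpl -0.36, Cox4i1 -0.10, Cox6a1 -0.085, Cox6b1 -0.076, Cox6c -0.094, Cox6c2 -0.25, Cox7a1 -0.86, Cox7a2 -0.23, Cox7b -0.31, Cox7c -0.17, Cox8a -0.040, Ndufa1 -0.34, Ndufa4 -0.24, Ndufaf4 -0.12, Ndufb4 -0.29, Ndufb4c -0.30, Ndufc2 -0.063, Ndufs7 -0.058, Ndufs8 -0.17, Ndufv2 -0.081, Sdha 0.082, Uqcr10 -0.21, Uqcr11 -0.33, and Uqcrb -0.16. So did Yy1 at -0.028, mt-Nd6 at -0.22, and mt-Atp8 at -0.34. In mice 3 and 4 alone, Atp5a1 gave -0.024, Cox6b2 0.0084, Ndufa10 -0.0030, Ndufs1 -0.0092, and Uqcrfs1 -0.040, and mt-Atp8 was called at 1.12. With library size alone, Atp5a1 gave -0.058, Atp5g1 -0.026, Cox7a1 -0.079, Ndufa1 -0.0043, Ndufa10 -0.052, Ndufs8 -0.081, Sdhd -0.019, and Uqcrfs1 -0.045. With at least 10 counts in all 8 libraries, Ndufs8 gave -0.0085. With the length trend removed, Cox7a1 gave -0.14, Ndufa1 -0.090, and Ndufs8 -0.058. Leaving out 1 mouse in turn gave Atp5g1 -0.037 to 0.13, Atp5mpl -0.037 to 0.39, Cox6a1 -0.0019 to 0.34, Cox6c2 -0.019 to 0.48, Cox7a1 -0.31 to 0.35, Cox7b -0.076 to 0.32, Ndufa1 -0.081 to 0.25, Ndufb4 -0.033 to 0.52, Ndufb4c -0.057 to 0.49, Ndufs8 -0.11 to 0.11, Uqcr11 -0.039 to 0.38, and Uqcrfs1 -0.035 to 0.076. The cause was not tested.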
